A study of Homo sapiens with 4 samples.

Results

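The comparison described here is C-30 at 2 µM against vehicle in DU145, an androgen-independent cell line from a human prostate carcinoma. Both cultures were kept in RPMI medium with 10% FBS, treated for 48 h, and measured on 1 array each. The study also holds 1 array of C-30 at 0.5 µM and 1 of No.10-3 at 5 µM, another compound described as a PSF inhibitor, and these are given below only as levels beside the comparison. Where all 4 arrays are given, the 0.5 µM and 2 µM arrays are called low and high C-30. There were no replicates, so no value has an error, no test was possible, and every statement describes these arrays. A difference is the log2 signal with C-30 at 2 µM minus that with vehicle, and genes are counted as 2-fold higher or lower from a log2 difference of 1. The highest signal of a named gene was 19.7, so the scale of the deposited values is not that of plain scanner readings, and a fold holds only on the scale of these values.

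Genes were taken when the higher of their 2 signals lay above the level that 95% of the 612 negative control probe sets of its array stayed under, which was 7.32 with vehicle and 7.15 with C-30 at 2 µM. This background level was passed by 5939 of 17687 named genes. Of the 7 epithelial markers, 5 were above it on both arrays, with signals of 12.98 and 12.31 for KRT8 and 10.84 and 10.17 for KRT18, keratins of simple epithelium. The adhesion gene CDH1 and the basal keratin gene KRT5 were below it on both. Of the 6 prostate lineage markers 4 were measured, and only 1 of these was above background on both arrays, at 10.18 and 9.49. The fibroblast, endothelial and erythroid markers, 10 in all, lay below background on both arrays, and CD68, which is also present in lysosomes of other cells, was the 1 leukocyte marker of 6 above it, at 8.43 and 8.79.

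PSF, the product of SFPQ, is a nuclear RNA-binding protein of the DBHS family that acts in transcription, splicing and paraspeckles, and works as a dimer with NONO or PSPC1. Genes of the cell cycle are made in waves, with replication and histone genes in late G1 and S phase and cyclin B and kinetochore genes in G2 and mitosis. E2F factors drive the first wave, and many promoters of the second hold CCAAT boxes, bound by NF-Y, and a cell cycle homology region. An array of a mixed culture reads the mean over all cells, so fewer cells in a phase and less RNA per cell cannot be told apart.

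The promoters of the mitotic kinase CDK1 and its cyclins, whose signals were higher with C-30 at 2 µM, are shown beside that of E2F1, whose signal was lower, because these genes lie on opposite sides of the comparison. The sequences are from RefSeq (GRCh38.p14), 250 bases before to 50 after the annotated start, written 5′ to 3′ on the strand of the gene. In the first 4, capitals mark the CCAAT box (CCAAT or its reverse complement) and the cell cycle homology region (TTTGAA or its reverse complement), and in E2F1 they mark the E2F letters TTTGGCGC.
CDK1, chr10:60778081-60778380 (+ strand): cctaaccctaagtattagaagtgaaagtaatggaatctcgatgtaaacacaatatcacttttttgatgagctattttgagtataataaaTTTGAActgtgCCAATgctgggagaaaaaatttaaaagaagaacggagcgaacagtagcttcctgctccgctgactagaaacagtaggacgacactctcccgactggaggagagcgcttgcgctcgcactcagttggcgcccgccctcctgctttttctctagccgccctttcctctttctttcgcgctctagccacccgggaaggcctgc
CCNB1, chr5:69166900-69167199 (+ strand): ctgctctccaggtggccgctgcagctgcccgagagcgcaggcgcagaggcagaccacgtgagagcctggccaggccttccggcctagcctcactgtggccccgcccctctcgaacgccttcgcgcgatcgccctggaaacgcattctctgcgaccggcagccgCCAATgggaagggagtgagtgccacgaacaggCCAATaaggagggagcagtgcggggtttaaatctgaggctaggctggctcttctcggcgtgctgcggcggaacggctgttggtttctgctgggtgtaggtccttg
CCNB2, chr15:59104896-59105195 (+ strand): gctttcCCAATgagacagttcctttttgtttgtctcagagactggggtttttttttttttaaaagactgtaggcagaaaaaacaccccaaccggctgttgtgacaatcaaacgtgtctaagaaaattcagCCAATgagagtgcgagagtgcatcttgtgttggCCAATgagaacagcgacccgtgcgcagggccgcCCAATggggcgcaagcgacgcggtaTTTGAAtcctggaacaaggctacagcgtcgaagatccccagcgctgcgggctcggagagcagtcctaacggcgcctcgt
CCNA2, chr4:121823834-121824133 (- strand): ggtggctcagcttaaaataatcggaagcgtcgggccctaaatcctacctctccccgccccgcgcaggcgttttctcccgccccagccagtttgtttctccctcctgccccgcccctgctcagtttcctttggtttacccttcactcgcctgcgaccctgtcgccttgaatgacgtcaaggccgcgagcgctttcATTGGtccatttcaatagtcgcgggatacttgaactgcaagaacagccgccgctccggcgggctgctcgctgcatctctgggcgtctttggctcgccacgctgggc
E2F1, chr20:33686336-33686635 (- strand): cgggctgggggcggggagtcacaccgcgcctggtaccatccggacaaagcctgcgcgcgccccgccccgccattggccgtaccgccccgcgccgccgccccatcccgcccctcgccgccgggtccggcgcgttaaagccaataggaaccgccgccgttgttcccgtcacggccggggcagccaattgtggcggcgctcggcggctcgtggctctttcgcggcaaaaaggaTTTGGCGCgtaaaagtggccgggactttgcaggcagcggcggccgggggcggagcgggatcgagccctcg
Each of the first 4 promoters held a CCAAT match, against 35.7% of all 27305 promoters in the table, and CCNB2 held 4 of them. TTTGAA was in the promoters of CDK1 and CCNB2, against 15.4% of all promoters. Only these exact letters were searched, wherever they stood. A promoter without them is not shown to lack a cell cycle homology region, and a match need not be one. TTTGGCGC stood in E2F1 and in 0.659% of all promoters. The E2F1 promoter also holds CCAAT letters, which are not marked, so these letters do not separate it from the others. A match describes the letters and is not evidence of binding.

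Of the 5939 genes, 287 were at least 2-fold higher with C-30 at 2 µM (4.83%) and 435 at least 2-fold lower (7.32%). All 46 replication-dependent histone genes above background were among the lower ones, with a median difference of -2.59. They were led by H2BC14 at -5.63, H3C8 at -4.57, H3C11 at -4.32, H1-5 at -3.98, H2BC10, with its treated signal under background, at -3.86 and H2AC8 at -3.83, and these near-identical genes can share probes. Without them, 389 of 5893 genes were lower (6.6%) and 287 higher (4.87%), and the median difference was -0.07. Those 5893 genes are described from here on.

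**Figure D1:**
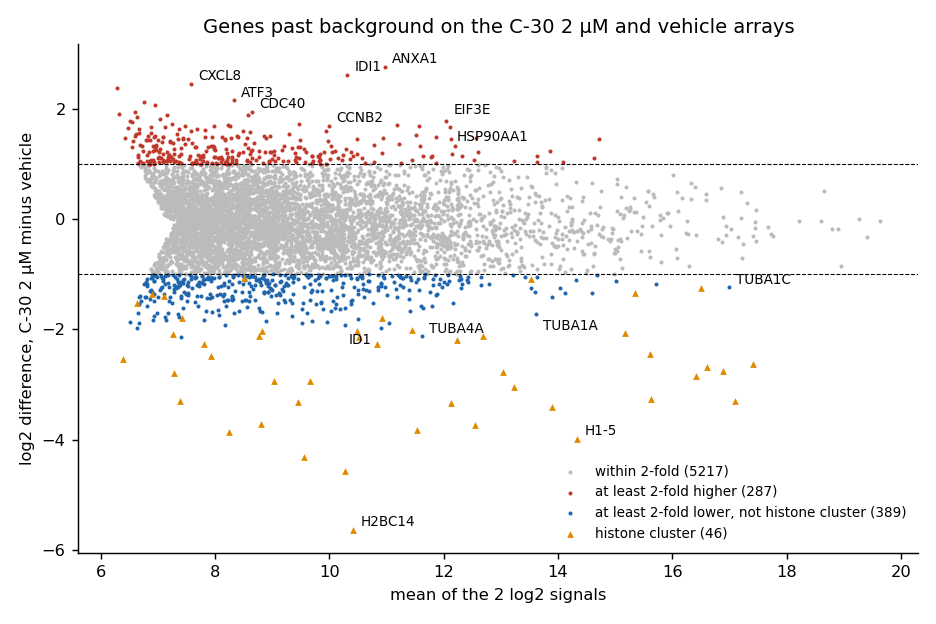
Log2 difference between C-30 at 2 µM and vehicle (vertical) against the mean of the 2 log2 signals (horizontal), 1 point per gene above background. Dashed lines mark the 2-fold limits; orange triangles are the 46 histone cluster genes, of which H2BC14 lies lowest at -5.63, while no other gene lies below -2.14 or above 2.76.

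The share of genes past 2-fold was close to that of the array's own positive control probe sets. Of 2009 of these above background, 4.33% were at least 2-fold higher and 6.32% lower, although they also read RNA of the cells and so are not free of a response. The 612 negative control probe sets were 2-fold higher in 17.8% and lower in 14.5% of cases, and the 49 of them above the background level in 38.8% and 34.7%. The 63 ERCC probe sets, of which 1 was above background, had none past 2-fold and a robust SD of 0.27. The poly-A spikes dap, lys, phe and thr were lower on the treated array by -0.50, -0.37, -0.42 and -0.89. The hybridization spikes differed by between 0.10 and 0.15, and the part of the spikes' shift in the result was not tested. Of the 5893 genes, 835 were under the background level on 1 of the 2 arrays, and 15.9% of these were 2-fold higher and 12.7% lower. The 5058 genes above it on both arrays were 2-fold higher in 154 cases (3.04%) and lower in 283 (5.6%), or either in 437 (8.64%). A difference marked inexact below has 1 of its 2 signals under background. The direction of the excess depended on the scaling: of genes past 2-fold, histone cluster genes left out, 42.5% were higher as deposited, against 57.4% after quantile normalization and 56.9% after centring on the median.

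The highest genes above background on both arrays came from several processes. ANXA1, which encodes the anti-inflammatory, membrane-binding protein annexin A1 (chromosome 9, 73151865 to 73170393 in GRCh38.p14), had a log2 signal of 9.59 with vehicle and 12.35 with C-30 at 2 µM, a difference of 2.76 (6.78-fold). No.10-3 gave 11.49 and low C-30 12.12, so vehicle was the low array of the 4. IDI1, the isomerase that makes the allylic building block of sterols (chromosome 10, 1039152 to 1056704), had signals of 8.997 for vehicle, 8.88 for No.10-3, and 10.10 and 11.61 for low and high C-30, a difference of 2.62. Here the arrays of vehicle and No.10-3 were alike and both C-30 arrays were higher. CDC40, a splicing factor of the second catalytic step, had signals of 7.67, 8.51, 9.04 and 9.62 in the same order, a difference of 1.95.

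PDCD10, a partner of germinal centre kinases at the Golgi and in junctions, had signals of 7.63 with vehicle and 9.53 with C-30 at 2 µM, a difference of 1.90. EIF3E, a subunit of translation initiation factor 3, stood at 11.16 and 12.94, a difference of 1.78, and was highest with C-30 at 0.5 µM, at 13.22. TWF1, the actin monomer-binding protein twinfilin, was higher by 1.72 and DPM1, the mannose donor synthase of the endoplasmic reticulum, by 1.71. BZW1, a regulator of translation start sites, was higher by 1.71, CCNB2, a mitotic cyclin, by 1.70 and LMAN1, a cargo receptor between endoplasmic reticulum and Golgi, by 1.69. For each of these 7 genes the vehicle array was the lowest of the 4.

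Others of the 25 highest genes had a vehicle signal under background, so their differences are inexact. CXCL8, the neutrophil chemokine interleukin-8, had signals of 6.34 for vehicle, 6.96 for No.10-3, and 8.26 and 8.80 for low and high C-30, a difference of 2.46. ATF3, a stress-induced transcription factor, stood at 7.24, 6.13, 7.41 and 9.40, a difference of 2.16. Only the array of C-30 at 2 µM was well above background for ATF3, whereas both C-30 arrays were for CXCL8. The kinase gene PRKD3 was higher by 2.39, the acetyltransferase complex gene ZZZ3 by 2.13, the kinetochore gene CENPF by 2.07, the endosomal sorting gene VPS36 by 1.95 and the tRNA modification gene ALKBH8 by 1.92. TUBGCP6, a part of the microtubule-nucleating ring complex, was higher by 1.89, the Wnt pathway scaffold APC by 1.81 and the growth arrest gene GADD45A by 1.73. PAXBP1 at 1.86, UACA at 1.78, HIPK3 at 1.70, ZNF267 at 1.69 and the WAVE complex gene NCKAP1 at 1.69 complete the 25, and of these NCKAP1 was above background on both arrays.

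**Figure D2:**
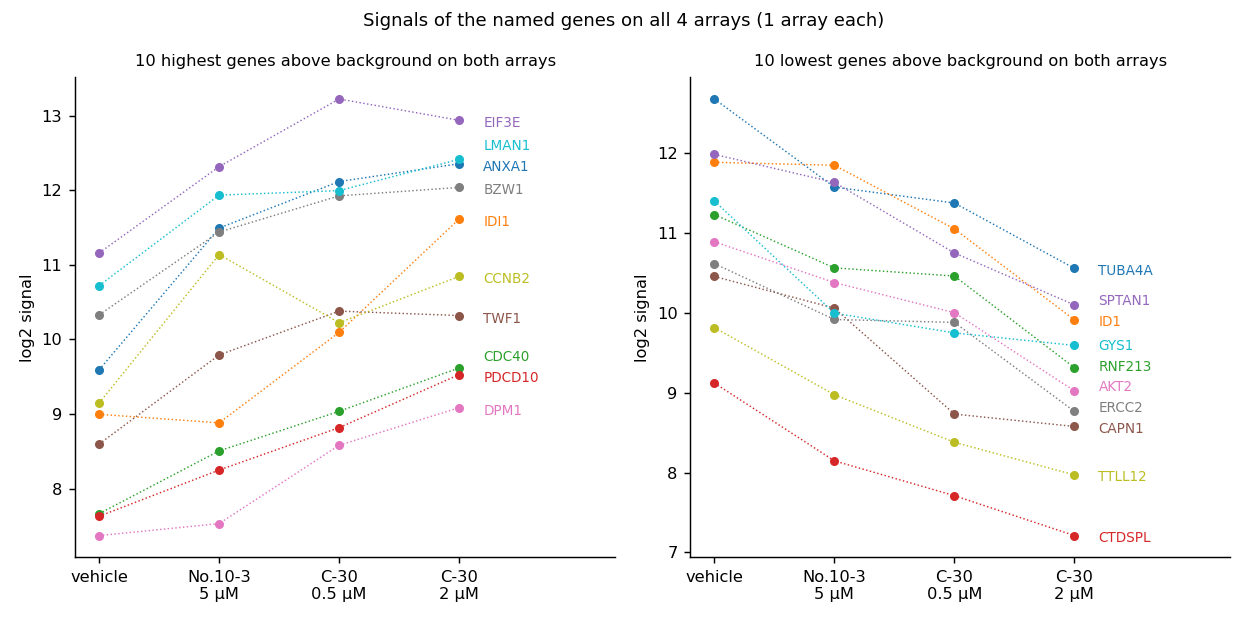
Log2 signals on all 4 arrays for the 10 highest (left) and 10 lowest (right) genes outside the histone clusters that were above background with both vehicle and C-30 at 2 µM. Dotted lines join the values of 1 gene and carry no order of time or dose; ANXA1 goes from 9.59 with vehicle to 12.35, and TUBA4A from 12.68 to 10.56.

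The lowest genes outside the histone clusters had varied roles. TUBA4A, an alpha tubulin (chromosome 2, 219249710 to 219254740), had signals of 12.68 for vehicle, 11.58 for No.10-3, and 11.38 and 10.56 for low and high C-30, a difference of -2.12 (4.36-fold lower). Vehicle was the high array and C-30 at 2 µM the low one. ID1, an inhibitor of differentiation induced by BMP (chromosome 20, 31605289 to 31606510), had signals of 11.89, 11.85, 11.05 and 9.91 in that order, a difference of -1.98. The array of No.10-3 was level with vehicle for ID1 and the C-30 arrays were lower. RNF213, a very large ubiquitin ligase, was lower by -1.92, with 11.23 and 9.32, the phosphatase gene CTDSPL by -1.91 and the membrane skeleton spectrin gene SPTAN1 by -1.89.

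CAPN1, the calcium-dependent protease calpain 1, differed by -1.88, the survival kinase gene AKT2 by -1.87, and ERCC2, the helicase of transcription factor IIH used in nucleotide excision repair, by -1.85. TTLL12, of the tubulin tyrosine ligase-like family, differed by -1.85, the glycogen synthase gene GYS1 by -1.81, the sorting gene PACS1 by -1.75, the pore membrane gene NUP210 by -1.74 and ANXA6, an annexin that binds membranes and actin, by -1.71. Among genes with an inexact difference, PLPPR2 stood at -2.14, the clathrin adaptor gene HIP1 at -1.98, the nuclear receptor gene RARG at -1.88 and the deadenylase subunit gene CNOT10 at -1.86. The lysosomal mannosidase gene MAN2B2 at -1.83, the kinase gene TAOK2 at -1.82, WDTC1 at -1.82, PPIP5K1 at -1.78, the lysosomal phosphatase gene ACP2 at -1.77, the tRNA methylase gene FTSJ1 at -1.76 and WDR73 at -1.72 were also inexact.

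Tubulin genes lay on the lower side. Of 10 measured above background, all had a negative difference and 5 were past 2-fold (50%, against 7.32% of all genes), with a median of -1.03 against -0.08 over all 5939 genes. TUBA1A had signals of 14.46 for vehicle, 13.86 for No.10-3, and 13.51 and 12.75 for low and high C-30, a difference of -1.71. TUBA1C stood at 17.61 and 16.37, a difference of -1.24, and the beta tubulin TUBB at 16.30 and 15.12, a difference of -1.18. TUBG1, the gamma tubulin of microtubule-organizing centres, was lower by -1.10. The fifth past 2-fold was TUBA4A, given above, and the 5 within 2-fold lay between -0.22 for TUBD1 and -0.95 for TUBB6. For all 10 the high C-30 array had the lowest signal of the 4. After quantile normalization 2 of the 10 were past 2-fold, with a median of -0.84. Alpha and beta tubulin genes resemble each other closely, which leaves their single values uncertain wherever a probe reads several.

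Of 16 genes of actin and its partners, 13 had a negative difference and 5 were 2-fold lower, against 7.32% of all genes (median -0.42). After the lowess correction on signal 3 were, and after quantile normalization the median was -0.10. CNN2, the actin-binding protein calponin 2, had signals of 10.88 with vehicle and 9.35 with C-30 at 2 µM, a difference of -1.53. ACTN4, a crosslinker of actin filaments, differed by -1.33, the non-muscle myosin gene MYH9 by -1.25 and ACTB, beta actin, by -1.11. TPM1, a tropomyosin, differed by -1.05, which is inexact. CNN3, another calponin, stood at 0.65.

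Few genes of DNA replication were past 2-fold. Of 16 licensing and helicase genes, 12 had a negative difference and 3 were 2-fold lower (18.8%, against 7.32% of all genes), with a median of -0.46. MCM5, a subunit of the replicative helicase, had signals of 11.15 for vehicle, 10.92 for No.10-3, and 10.10 and 9.61 for low and high C-30. Its difference was -1.54, beside -1.17 for MCM4, -1.13 for the helicase partner gene CDC45, -0.76 for MCM3 and -0.69 for MCM2. The other subunit genes MCM7 and MCM6 stood at -0.47 and -0.15, and GINS4 at -0.99. DBF4, the activator of the kinase that fires origins, was on the other side at 1.68, an inexact value. The origin recognition genes ORC2 and ORC5 stood at 0.87 and 0.74. Of 22 genes of fork polymerases, clamp and chromatin assembly, 19 had a negative difference and none passed 2-fold (median -0.48), with the assembly factor gene CHAF1B at -0.96 and the flap endonuclease gene FEN1 at -0.88.

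Nucleotide synthesis genes were 2-fold lower in 3 of 16 cases (18.8%, against 7.32% of all genes), with a median of -0.27. After each scaling alternative or the G+C correction 1 was. The 3 were the pyrimidine synthesis gene CAD at -1.26, DCTPP1 at -1.06 and the thymidine kinase gene TK1 at -1.02. Among 16 G1/S cyclins, E2Fs and their partners, 14 had a negative difference and 3 were 2-fold lower, against 7.32% of all genes (median -0.69). After centring 1 was, and of the 13 above background on both arrays 2 were, with a median of -0.44. CDK2, the kinase of cyclins E and A, had signals of 11.17 for vehicle, 10.63 for No.10-3, and 10.47 and 9.82 for low and high C-30, a difference of -1.36. The repressor gene E2F8 stood at -1.06 and the activator gene E2F1, with an inexact difference, at -1.01. RB1, which restrains E2F, stood at 0.73. Of 4 genes above background that are named as CDK inhibitors, CDKN1B was higher by 1.22, with 7.87 and 9.09, and CDKN1A by 0.62. CDKN3, which encodes a phosphatase despite its name, was higher by 1.09, and CDKN2A differed by -0.16.

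**Figure D3:**
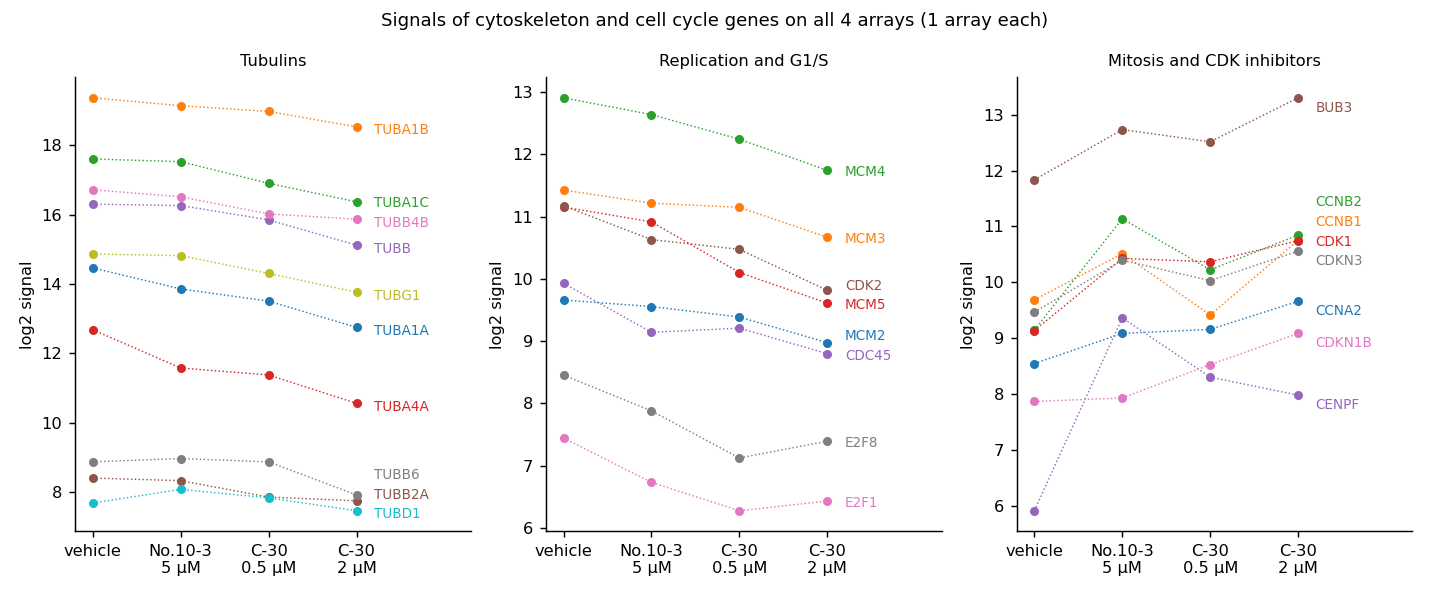
Log2 signals on all 4 arrays for tubulins (left), replication and G1/S genes (middle) and genes of mitosis with CDKN1B and CDKN3 (right). Dotted lines join the values of 1 gene. TUBA1A goes from 14.46 with vehicle to 12.75 with C-30 at 2 µM and MCM5 from 11.15 to 9.61, while CDK1 goes from 9.14 to 10.75.

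Mitotic genes went both ways. Of 19 mitotic cyclins, kinases and anaphase-promoting complex genes, 4 were 2-fold higher (21.1%, against 4.83% of all genes) and 2 lower, with a median of 0.05. CDK1 had signals of 9.14 for vehicle, 10.43 for No.10-3, and 10.37 and 10.75 for low and high C-30, a difference of 1.61. CCNB2 stood at 9.15, 11.14, 10.22 and 10.84 in that order, a difference of 1.70. CCNB1 stood at 9.69, 10.51, 9.42 and 10.75, a difference of 1.07, with low C-30 as its lowest array. CCNA2 was higher by 1.11. The promoters of these 4 genes are printed above because their signals were higher, so their passing 2-fold was fixed by that choice. On the other side were the phosphatase gene CDC25B at -1.20 and the transcription factor gene MYBL2 at -1.13.

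Of 20 kinetochore and checkpoint genes, 14 had a positive difference and 2 were 2-fold higher (10%, against 4.83% of all genes, median 0.39). CENPF, given above, is inexact, and of the 15 above background on both arrays 1 was 2-fold higher, with a median of 0.23. The checkpoint gene BUB3 was higher by 1.47, with 11.83 and 13.30, whereas SPC24, of the NDC80 complex, stood at -1.03. Of 18 genes of kinesins, spindle and cytokinesis, KIF14 at 1.505 and CEP55 at 1.38 were past 2-fold (11.1%, against 4.83% of all genes). Both are inexact, and of the 16 above background on both arrays 0 were 2-fold higher, with a median of 0.14. PRC1 stood at 0.95, ANLN at 0.82 and the proliferation marker gene MKI67 at -0.85. Among 18 cohesin and condensin genes the median was 0.35 and 2 were 2-fold higher (11.1%, against 4.83% of all genes). After quantile normalization or centring 5 were. The 2 as deposited were the cohesin loader gene NIPBL at 1.27 and the condensin gene SMC2 at 1.19. Both are inexact, and over the 13 members above background on both arrays the median was -0.07.

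Chromatin regulators split by member. Of 22 above background, 6 were 2-fold lower and 3 higher (median -0.13), against 7.32% and 4.83% of all genes. None of the 16 above background on both arrays was 2-fold higher. DNMT1, the maintenance DNA methyltransferase, had signals of 9.66 with vehicle and 7.97 with C-30 at 2 µM, a difference of -1.69, and its recruiter gene UHRF1 stood at -1.46. The remodeller genes ARID1A at -1.63, CHD3 at -1.501, CHD8 at -1.18 and CHD4 at -1.09 were lower too, of which CHD3 is inexact. CHD1 at 1.56, JMJD1C at 1.34 and ZZZ3 were higher, all 3 inexact. None of 8 replacement histone genes was past 2-fold (median -0.45), and H2AX, the variant marked at DNA breaks, stood at -0.85. Of the factors that make and process histone transcripts, 13 were above background with a median of -0.03, and the scaffold gene SYMPK at -1.28 was the 1 past 2-fold.

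Repair genes showed few members past 2-fold. Among 13 of recombination and Fanconi repair, the kinase gene ATM stood at 1.10, RAD50, inexact, at 1.05 and the exonuclease gene EXO1 at -1.51, from 9.86 to 8.34. Among 9 of translesion and mismatch repair the median was -0.35, and the mismatch repair gene PMS2 was at the 2-fold line at -1.0007.

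In sterol synthesis, members lay on both sides. Of 7 genes from acetyl-CoA to squalene, IDI1 and HMGCS1, the HMG-CoA synthase, were 2-fold higher (28.6%, against 4.83% of all genes). HMGCS1 had signals of 10.92 for vehicle, 9.71 for No.10-3, and 11.49 and 12.26 for low and high C-30, a difference of 1.34. The lowest array was No.10-3 and both C-30 arrays were above vehicle. The epoxidase gene SQLE stood at 0.87 and MSMO1, a later enzyme, at 0.72, whereas the reductase gene TM7SF2 stood at -1.46. Among the regulators, INSIG1, the retention factor of the SREBP complex, was at 0.80, SREBF1 at -1.40, which is inexact, SREBF2 at -0.97 and SCAP at -0.90. The fatty acid synthase gene FASN stood at -1.28, with a median of 0.01 over 10 genes of that pathway.

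Stress genes were higher in part. Among 14 regulators of the integrated stress response, 11 had a positive difference and 2 were 2-fold higher (14.3%, against 4.83% of all genes). The median was 0.42. These 2 were ATF3 and DDIT3, a factor linked to cell death under stress, at 1.40, both inexact. After centring 4 were 2-fold higher. Of the 11 above background on both arrays 0 were, with a median of 0.31. CEBPG stood at 0.94 and SESN2 at 0.93. Of 17 amino acid supply genes controlled by ATF4, 3 were 2-fold higher (17.6%, against 4.83% of all genes) with a median of -0.07. SLC7A11, the cystine transporter, had signals of 10.75 for vehicle, 11.66 for No.10-3, and 11.82 and 12.27 for low and high C-30, a difference of 1.52. SLC38A2, an amino acid transporter, stood at 1.03 and the transaminase gene BCAT1 at 1.02. ASNS, asparagine synthetase, stood at 0.95 and PYCR1, of proline synthesis, at -0.73, so members lay on both sides. None of 16 aminoacyl tRNA synthetase genes passed 2-fold (median 0.23).

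Chaperones of the cytosol held HSP90AA1, inducible HSP90, at 11.27 for vehicle, 12.68 for No.10-3, and 13.05 and 12.95 for low and high C-30, a difference of 1.68. The co-chaperone gene DNAJA1 was higher by 1.15 and the mitochondrial HSPD1 by 1.01, whereas the small heat shock gene HSPB1 stood at -1.01. Of 18 chaperones of the endoplasmic reticulum, DNAJB9 at 1.06, inexact, was the 1 past 2-fold. The proteasome, which degrades tagged proteins, had 6 of 28 subunit genes 2-fold higher (21.4%, against 4.83% of all genes), none lower, and a median of 0.29. PSMC2, a base ATPase, had signals of 11.98 for vehicle, 12.39 for No.10-3, and 13.02 and 13.21 for low and high C-30, a difference of 1.23. PSMC6 stood at 1.10, PSMA4 at 1.06, PSMA3 at 1.05, PSMD6 at 1.04 and PSMA6 at 1.03. The same number, 6, passed 2-fold under each other scaling tried.

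A list of NRF2, the antioxidant regulator, with KEAP1 and NRF2 targets had a negative difference in 15 of 18 cases. Of the 18, 3 were 2-fold lower, against 7.32% of all genes (median -0.38). KEAP1, a regulator rather than a target, was 1 of the 3, and the NRF2 gene NFE2L2 stood at -0.09. The pentose phosphate gene TKT stood at -1.33, KEAP1, which holds NRF2 back, at -1.26 and the haem transporter gene SLC48A1 at -1.10, beside HMOX1, haem oxygenase, at -0.82. Glycolysis and hypoxia genes had a negative difference in 18 of 20 cases (median -0.44). GYS1 and the phosphofructokinase gene PFKL, at -1.01, were 2-fold lower, a share of 10% near the 7.32% of all genes, and after quantile normalization, the correction on signal, centring or the G+C correction 1 was. GPI stood at -0.89 and PKM at -0.71. Respiratory chain genes had none of 28 past 2-fold (median -0.17).

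**Figure D4:**
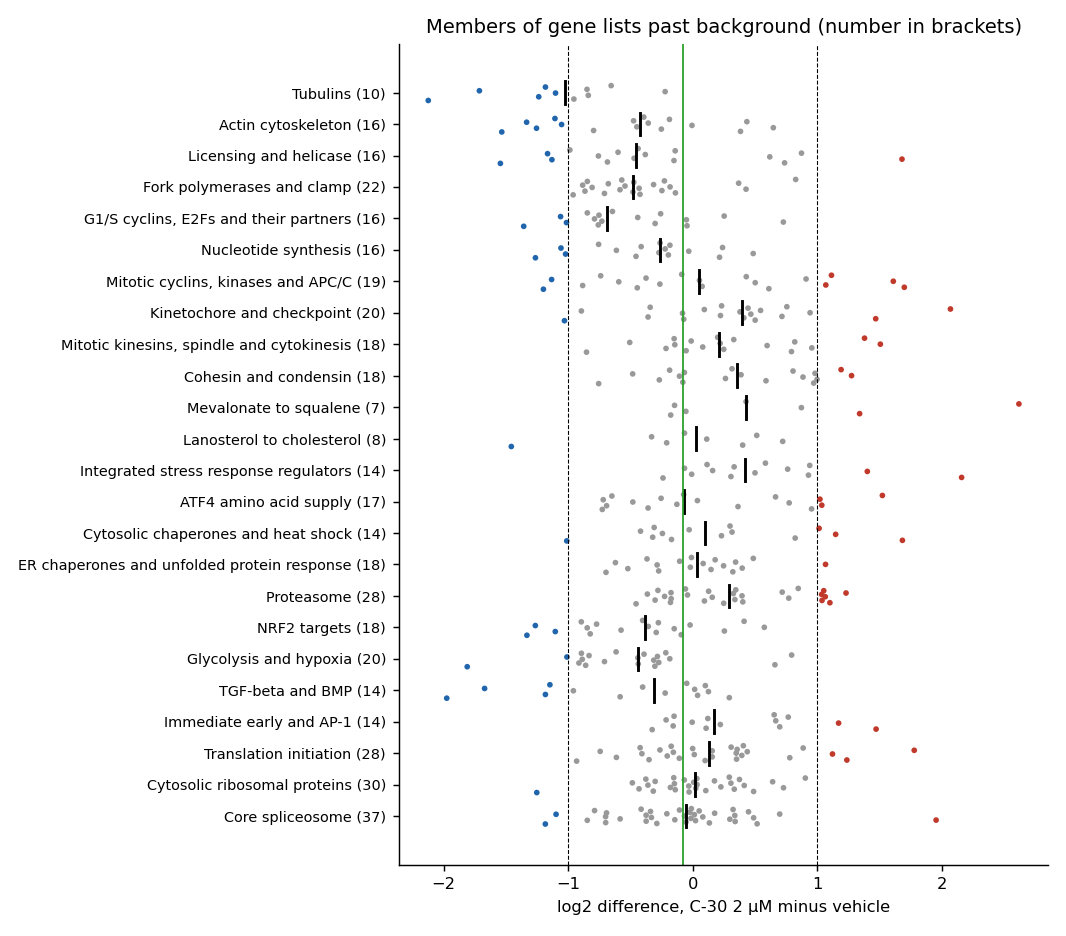
Log2 difference between C-30 at 2 µM and vehicle for each member above background of 24 gene lists, with the number of members in brackets. Red and blue points are at least 2-fold higher or lower, the black bar is the list median and the green line is the median of all 5939 genes, -0.08, and the lists were picked to cover the pathways described in the text. The tubulin bar lies at -1.03 and the mevalonate bar at 0.43.

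Signalling genes of inflammation and growth went separate ways. Of 14 NF-kB, cytokine and feedback genes, CXCL8 and the NF-kB subunit gene REL, at 1.04, were 2-fold higher (14.3%, against 4.83% of all genes). CSF1, the macrophage growth factor, was lower at -1.52, and the list median was -0.25. CSF1 had signals of 12.92 for vehicle, 10.95 for No.10-3, and 11.73 and 11.40 for low and high C-30, so each treated array was lower than vehicle. Of 14 immediate early and AP-1 genes, EGR1 stood at 1.47, with 7.53 and 9.003, and JUN at 1.17, with a median of 0.17. Of the interferon response, 1 of 24 measured genes was above background, USP18 at -1.05, which is inexact.

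Of 14 TGF-beta and BMP genes, 4 were 2-fold lower (28.6%, against 7.32% of all genes) and none higher (median -0.31). They were ID1, ID3, another inhibitor of differentiation, at -1.67, the ligand gene TGFB1 at -1.18 and the receptor gene TGFBR2 at -1.15. ID3 had signals of 10.86 for vehicle, 10.82 for No.10-3, and 10.26 and 9.19 for low and high C-30, the same order as ID1. Among 14 genes of YAP and TEAD, 3 were 2-fold lower (21.4%, against 7.32% of all genes), or 2 of the 11 above background on both arrays. The 3 were the matricellular gene CCN1 at -1.63, ANKRD1, inexact, at -1.19 and TEAD2 at -1.05. Among receptors and ligands, MET, the hepatocyte growth factor receptor, stood at 1.14 and IGF1R at -1.22. Among integrins, ITGA5, part of the fibronectin receptor, stood at -1.47 and ITGAV, inexact, at 1.12. CLDN1, a tight junction protein, was higher by 1.07, while the keratin genes KRT8 and KRT18 were at -0.66 and -0.67.

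Genes of RNA processing and translation mostly stayed within 2-fold. SFPQ had signals of 12.59 with vehicle and 12.68 with C-30 at 2 µM, its partner NONO 12.48 and 11.58, and PSPC1 9.91 and 9.98, and none of 12 genes of their list passed 2-fold (median 0.03). Of 37 core spliceosome genes, CDC40 was 2-fold higher and 2 were lower, the helicase gene DHX8 at -1.18 and SNRNP70, of the U1 particle, at -1.10, with a median of -0.06. Among 27 SR protein and hnRNP genes, SRSF3 stood at 1.19 and the splicing coactivator gene SRRM1 at -1.42. None of 19 genes of transcription elongation passed 2-fold (median -0.08). In 28 translation initiation genes, 3 were 2-fold higher (10.7%, against 4.83% of all genes) and none lower (median 0.13). The 3 were EIF3E, EIF2S2, a subunit of the factor that brings the first tRNA, at 1.24 and EIF5 at 1.12. Ribosomal protein genes had 1 of 30 past 2-fold, RPS15 at -1.25 (median 0.02). Of 22 ribosome biogenesis genes, NPM1 stood at 1.08 and POLR1A, the large subunit of RNA polymerase I, at -1.003, with a median of 0.13.

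Genes past 2-fold were unevenly spread over the chromosomes, beside 4.87% higher and 6.6% lower over all 5893 genes. The chromosomes given are those with the most extreme shares. Of 368 genes on chromosome 19, 54 were 2-fold lower (14.7%) and 5 higher (1.36%), and of 132 on chromosome 22, 19 were lower (14.4%) and 2 higher. Chromosome 17 had 43 of 374 lower (11.5%) and 5 higher. On the other side, chromosome 13 had 9 of 73 higher (12.3%) and 0 lower, chromosome 21 had 8 of 68 higher (11.8%) and 3 lower, and chromosome 5 had 26 of 256 higher (10.2%) and 10 lower. The shares of chromosomes 13 and 21 rest on few genes. Inexact differences are counted, such as VPS36 on chromosome 13 and PAXBP1 on chromosome 21. Median differences ran from -0.40 on chromosome 19 to 0.25 on chromosome 13.

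Promoter base composition moved with the difference too. The median promoter G+C was 64.3% for the 251 higher genes with a promoter entry, 68.7% for the 323 lower ones and 65.7% for the 4413 within 2-fold. Among 5 equal classes, that with the least G+C had 6.66% 2-fold higher and 4.02% lower, and that with the most had 3.28% higher and 9.84% lower. The array's 23 background probe sets, graded by G+C, differed by a median of 0.02 with none past 2-fold. The part of base composition in the result was not tested. The difference moved with signal as well, from a median of 0.05 for genes whose higher signal was 7 to 8 to -0.21 above 12. The median vehicle signal was 7.45 for the higher genes and 9.53 for the lower ones. Of these, 133 of the 287 higher and 106 of the 389 lower genes had 1 signal under background. The part of signal was not tested either. Among the 52 lists, the median promoter G+C was 57.7% for ribosomal proteins, 59.3% for the proteasome, 62.0% for tubulins, 70.5% for TGF-beta and BMP genes and 72.0% for receptor kinases and ligands. After a correction of the difference on promoter G+C, the 2-fold counts changed in 22 of the 52 lists, with more higher members in 11 and fewer lower members in 13. Lower mitotic cyclin, kinase and anaphase-promoting complex genes went from 2 to 0 and nucleotide synthesis genes from 3 to 1. Lower members of the NRF2 list went from 3 to 2 and TGF-beta and BMP genes from 4 to 3. The counts for tubulins and the proteasome were the same as without it. Gene span had medians of 38935 bases for higher, 29713 for lower and 31623 for other genes.

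**Figure D5:**
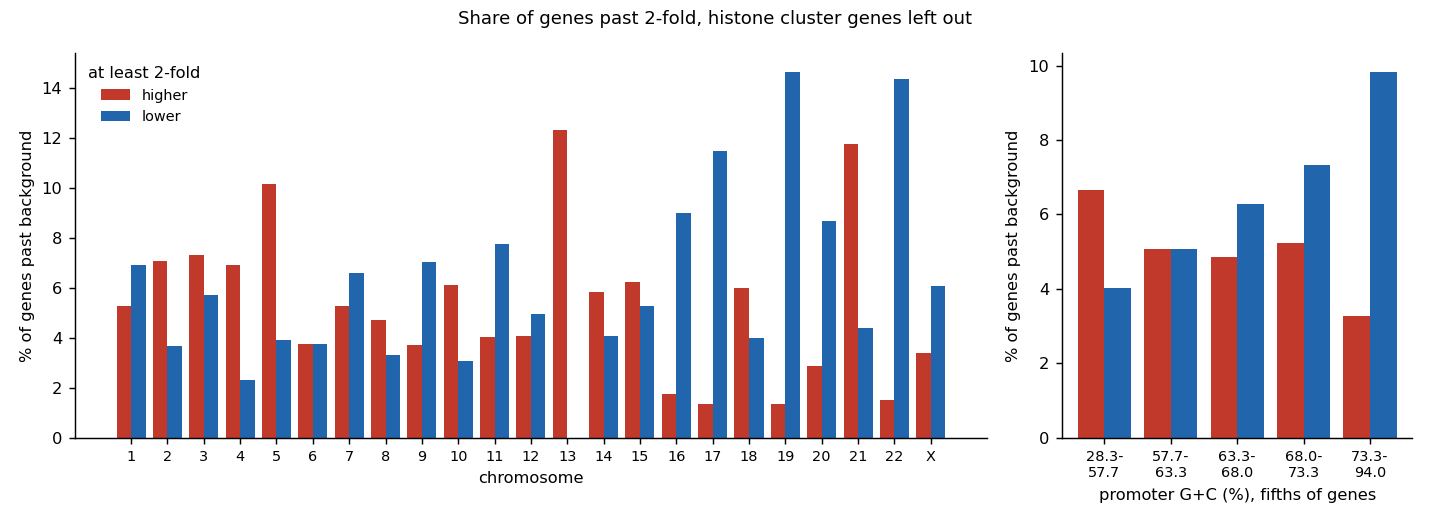
Share of genes above background that were at least 2-fold higher (red) or lower (blue) with C-30 at 2 µM, by chromosome (left, X last) and by 5 equal classes of promoter G+C (right), histone cluster genes left out. Chromosome 19 has 14.7% lower and 1.36% higher, chromosome 13 12.3% higher and 0 lower, and the share lower goes from 4.02% to 9.84% over the classes.

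Of the promoter letters searched on both strands, CCAAT was found in 45.4% of promoters of higher genes, 38.7% of lower and 37.9% of others. TATAAA was in 8.37%, 2.79% and 5.03%, and TTTGAA in 14.3%, 7.43% and 9.04%, against 11.95% and 15.4% of all promoters, sets that differ in G+C as given above. TTTGGCGC was in 1.20%, 1.24% and 1.18%, TTTCCCGC in 1.99%, 3.72% and 3.33%, and the ATF4 letters TGATGNAA in 2.39%, 0.619% and 1.63%. The sterol letters TCACNCCAC stood in 1.99%, 0.929% and 1.16%, and the cAMP element TGACGTCA in 3.98%, 2.79% and 3.69%. The AP-1 letters TGANTCA were in 4.38%, 2.79% and 4.12%, and an NF-kB motif in 1.20%, 0.619% and 0.634%. The TEAD letters GGAATG were in 11.95%, 9.598% and 10.04%. Over all promoters, TGATGNAA was in 3.67%, TGANTCA in 7.76% and GGAATG in 14.05%, each more than in the higher genes. The all-promoter shares were 1.66% for TTTCCCGC, 1.15% for TCACNCCAC, 1.98% for TGACGTCA and 0.579% for the NF-kB motif. Several shares rest on few promoters. TGATGNAA was in 6 of the higher and 2 of the lower genes, TCACNCCAC in 5 and 3, and the NF-kB motif in 3 and 2.

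The values next to each limit were as follows. BLZF1 and BLOC1S2, both inexact, were just inside the 2-fold line at 1.0015 and 1.0015, and CLCN6 just outside at 0.9987. PMS2 was just inside on the lower side at -1.0007 and MTR just outside at -0.9970. At the background level, POP5 was just inside, with a higher signal of 7.15, and TAF11 just outside, also at 7.15.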

How the data were processed

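Total RNA of DU145 cells was biotin-labelled and hybridised, 1 array per condition. The deposited values are log2 signals per probe set, and the submitters' processing notes name RMA and Affymetrix Expression Console 1.3.0 as the authors' tools. The log base is inferred from the range and from RMA's usual output. The genome build is not given in the sources used here. Among 24351 probe sets, 17709 had 1 symbol in the platform annotation, 0 had several and 6642 had none, and all 17709 were updated by Entrez identifier, giving 17687 genes. The mean was taken for 20 genes with several probe sets.

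Differences were taken per gene as deposited, with no test. Genes and 52 lists were described by counts and medians beside those of all genes above background. Members and lists were chosen with earlier results of these data known. Named genes were the 25 highest and lowest outside the histone clusters and the 10 highest and lowest above background on both arrays. They also include 6 histone cluster genes, SFPQ, NONO and PSPC1, and list members past 2-fold with up to 4 others in most lists. Ranked names leave out uncharacterised loci, olfactory and immune receptor genes and small RNAs. Spans and promoters come from RefSeq tables of GRCh38.p14, and 84.6% of genes had a promoter entry. The counting code was tested on simulated data with large made changes and little noise, which checks the code and not the calls made here. Precision is limited by the number of arrays. The tools were pandas 2.3.3 and numpy 2.4.6 under Python 3.11.15, with statsmodels 0.14.6 for lowess and matplotlib 3.10.9 for plots. Alternatives covered the floor, the scaling, the probe set rule, the threshold and the table of values.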

Additional observations from a re-analysis of the deposited data

Results flagged for a closer look

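Probe sets without a gene name in the annotation used, controls left out, were not part of the comparisons above. Of 896 of them above background, 32 were at least 2-fold higher with C-30 at 2 µM (3.57%) and 64 at least 2-fold lower (7.14%). The lowest had a log2 signal of 15.78 with vehicle and 12.16 with C-30 at 2 µM, a difference of -3.62, and the highest a difference of 2.06, from 5.18 to 7.23, which is inexact because the vehicle signal lay under background. They were set apart because their signal passed the negative control probe sets while no gene could be named for them.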

How the results depend on the processing

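With 1 array a group, no replicate could be left out. No paired analysis was possible because each group holds 1 array. The counts were 287 higher, 435 lower and 389 lower without histone cluster genes. They moved past 1.5 times with a threshold of 1.5-fold (911, 1263 and 1217) and of log2 1.5 (52, 105 and 65). With the floor at the 99th percentile of the negative controls 126 genes were higher and 256 lower without histone cluster genes. Without a floor these counts were 570 and 592, and with both arrays above background 154 were higher. Quantile normalization gave 387 higher and 331 lower, centring 377 and 330, a lowess correction on mean signal (fraction 0.3) 308 and 384, and one on promoter G+C, chosen after seeing the data, 357 and 331. The brightest probe set and the other table of values changed no count. Of list medians of at least 0.27 either way, cohesin and condensin turned to -0.074 with the stricter floor and to -0.068 with both arrays above background. The MYC network turned to 0.010 with the stricter floor, and without a floor the interferon response turned to 0.13, integrins to 0.011 and prostate lineage genes to 0.037. No named gene past 2-fold changed sign under these settings, and of 151 such genes 15 were under 2-fold after quantile normalization and 23 after the correction on signal. Counts past 2-fold changed in 23 of 52 lists after quantile normalization, 28 after the correction on signal, 18 after centring and 22 after that on promoter G+C. Signal over background limits the 835 genes with 1 signal under it.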

Other observations

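Among 9 BCL2 family genes above background, BNIP3L, a mitophagy receptor, stood at 0.99 and MCL1, which blocks apoptosis, at 0.63, whereas BAX, the pore-forming effector, stood at -0.68 and BAD, inexact, at -1.01. Of 10 genes named for control by p53, GADD45A and DDB2, at 1.04, were 2-fold higher (20%, against 4.83% of all genes). Both are inexact, and GADD45B stood at -0.96. Of 8 polyamine genes, the spermidine synthase gene SRM was 2-fold lower at -1.46, with signals of 9.93 for vehicle, 10.24 for No.10-3, and 9.65 and 8.48 for low and high C-30, so that only the last array was low. AMD1, which supplies the aminopropyl donor, stood at 0.97. Among 21 autophagy and lysosome genes, VPS36 was past 2-fold and BECN1 stood at 0.99, while HEXA, a lysosomal hydrolase, stood at -0.99. The annexins spanned from ANXA6 at -1.71 to ANXA1 at 2.76. Between them lay ANXA11 at -0.67, ANXA7 at 0.01, ANXA4 at 0.28, ANXA2 at 0.57, ANXA3 at 0.69 and ANXA5 at 0.84. Their list had a median of 0.01 over 11 genes, but it also holds S100A10 at -0.12, S100A11 at -0.27 and S100A6 at -0.10, which are not annexins.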
